A study of Mus musculus with 6 samples.

Results

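The connexin genes Gja1, Gja4, Gjb2, Gjb5, Gjb6 and Gjc1 were followed in RNA sequencing of whole skin. They were taken by gene symbol, 6 of the 23951 genes in the table and 6 of its 20 connexins. The study compared 3 mice labelled JunB dep, called JunBΔep here, with 3 mice labelled JunB +/+, called controls, all described as littermates of strain C57Bl/6 aged 6 to 7 months. JunBΔep mice lack JunB, a subunit of the AP-1 transcription factor, in cells that express keratin 5, so the other cells of the skin keep the gene, and their samples came from lesional skin. The labels name no body site. The replicate number of each mouse, 0, 1 or 2, is used as its name.

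Connexins are membrane proteins that assemble into hexameric channels, and channels of neighbouring cells dock to form gap junctions, through which ions, second messengers and other small molecules pass. Keratinocytes use several connexins in layers that partly overlap. Gja1 (connexin 43) is the widespread form of epidermis, fibroblasts and muscle, Gjb2 (connexin 26) and Gjb6 (connexin 30) are found in hair follicles and in wounded or hyperproliferative epidermis, and Gjb5 (connexin 31.1) belongs to differentiating epidermis. Gja4 (connexin 37) is a connexin of arterial endothelium and Gjc1 (connexin 45) of smooth muscle and other excitable tissue.

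Before the connexins, the libraries were checked. Junb was at 59.3, 72.4 and 56.9 FPKM (fragments per kilobase of transcript and 1000000 mapped fragments) in control mice 0, 1 and 2. The libraries labelled JunBΔep 0, 1 and 2 had 129.6, 42.8 and 28.0 FPKM, so JunBΔep 0 lay above every control and the other pair below. The log2 fold change of Junb was -0.21 (limma, standard error 0.55, adjusted p = 0.901). Other cells of the skin keep the gene, so Junb in whole skin cannot test a label, and the source of the high value was not tested. The library labelled JunBΔep 0 also stood apart in its epithelium. The mucosal keratins Krt4 and Krt13 reached 1356 and 1990 FPKM there, while no other library exceeded 0.937 FPKM for either. Krt14, Krt6a and Krt16 were listed at 0 there, which can be a failed estimate. Krt5 (1588 to 3725 FPKM) and Krt10 (1968 to 3872 FPKM) were high in all 6 libraries. Other keratinocyte genes were uneven. Krt15, Col17a1, Dst and Lor were lowest in JunBΔep 0 (80.7, 92.3, 14.9 and 823 FPKM), while Itga6 and Itgb4 were highest there (67.0 and 78.3 FPKM). High Krt5 and Krt10 therefore do not make its epithelium like that of the other libraries. All 10 skeletal muscle markers were lower in all 3 JunBΔep libraries than in every control, as were 9.16% of all tested genes. Of the 10, 8 passed an adjusted p of 0.05 in limma, which 1.38% of all tested genes passed. None of the 10 was called with the replicate number or the series of the sample titles as a block, or in 4 of the 6 fits without 1 mouse, while 1 was called without JunBΔep 0, 9 without JunBΔep 2 and 3 with no filter on low values. In whole skin, fewer cells of a type and less RNA per cell cannot be told apart. The number of reads per library is unknown, so no counting interval is given, and low values are the least certain.

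By position on mm9, the genes lay on 4 chromosomes. Gjb2 (chromosome 14, 57717437 to 57723539, minus strand) and Gjb6 (chromosome 14, 57742140 to 57752448, minus strand) were 18600 bases apart, with 1 annotated gene between them. Gja4 (chromosome 4, 126988665 to 126991283) and Gjb5 (chromosome 4, 127032053 to 127035425) were both on the minus strand. Gja1 was on chromosome 10 (56097106 to 56110225, plus strand) and Gjc1 on chromosome 11 (102660893 to 102681014, minus strand). No annotated gene overlapped any of the 6. The coding sequence lay within 1 exon in every member but Gja1, whose coding annotation covers 2 exons. The longest stretch of identical bases between transcripts of any 2 members was 26 bases (Gja1 and Gja4), and it was 20 bases between Gjb2 and Gjb6. Neither the labels nor the methods state the read length.

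Promoter sequences from RefSeq (GRCm38.p6) were found for 5 of the 6 genes, all but Gjc1. The 250 bases before the start of Gja1, Gjb2 and Gjb6 are shown because these 3 genes varied most between mice and JunB is part of a factor that binds DNA. Capitals mark TGANTCA, the letters of the AP-1 site, which reads the same on both strands.
Gja1, chr10:56377050-56377299, plus strand: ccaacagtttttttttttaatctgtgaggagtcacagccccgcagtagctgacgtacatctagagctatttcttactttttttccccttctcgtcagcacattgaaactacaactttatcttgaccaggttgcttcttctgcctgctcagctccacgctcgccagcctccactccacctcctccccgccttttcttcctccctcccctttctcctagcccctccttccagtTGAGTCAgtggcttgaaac
Gjb2, chr14:57104703-57104952, minus strand: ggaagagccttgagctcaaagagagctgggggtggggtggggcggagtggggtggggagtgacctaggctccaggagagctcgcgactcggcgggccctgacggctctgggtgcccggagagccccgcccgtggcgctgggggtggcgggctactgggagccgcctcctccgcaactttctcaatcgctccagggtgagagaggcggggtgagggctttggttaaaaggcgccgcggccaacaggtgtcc
Gjb6, chr14:57133612-57133861, minus strand: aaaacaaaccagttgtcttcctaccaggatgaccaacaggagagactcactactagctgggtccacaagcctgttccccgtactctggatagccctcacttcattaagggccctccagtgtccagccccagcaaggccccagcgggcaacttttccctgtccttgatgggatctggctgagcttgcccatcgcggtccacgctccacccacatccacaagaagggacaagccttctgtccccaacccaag
Gja1 held 1 match, TGAGTCA, whose first base is 19 bases before the start, and the windows of Gja4, Gjb2, Gjb5 and Gjb6 held none. Of 32851 promoter windows of the same length, 6.75% held TGANTCA. The related site TGACGTCA, which does not overlap a TGANTCA match, was in 1.55% of the windows and in none of the 5 connexin windows. A match describes the letters only. The windows had a G and C content of 50% (Gja1), 69.2% (Gjb2) and 56.8% (Gjb6).

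Gja1, Gjb2 and Gjb6 were high in the same 3 mice, 2 of them JunBΔep and 1 a control. Gja1 was at 58.1, 59.0 and 179 FPKM in control mice 0, 1 and 2 and at 378, 327 and 68.9 FPKM in JunBΔep mice 0, 1 and 2. Gjb2 was at 7.40, 1.69 and 125 FPKM in control mice 0, 1 and 2, and at 399, 240.3 and 6.50 FPKM in JunBΔep mice 0, 1 and 2. Gjb6 was at 0.819, 1.15 and 10.6 FPKM in control mice 0, 1 and 2, and at 32.8, 22.7 and 0.955 FPKM in the JunBΔep mice. For each gene the order from the top was JunBΔep 0, JunBΔep 1 and control 2, and the third JunBΔep mouse lay among or close to the low controls, so the groups overlapped. The highest mouse exceeded the lowest 236-fold for Gjb2, 40.0-fold for Gjb6 and 6.51-fold for Gja1.

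The other three members ranged less and in other directions. Gjb5 was at 45.4, 70.2 and 32.3 FPKM in control mice 0, 1 and 2 and at 16.6, 31.3 and 43.0 FPKM in JunBΔep mice 0, 1 and 2, lowest in the mouse where Gjb2 was highest and highest in the mouse where Gjb2 was lowest. Gja4 was at 4.98, 8.03 and 3.80 FPKM in control mice 0, 1 and 2, and at 3.88, 3.91 and 6.83 FPKM in the JunBΔep mice. Gjc1 was at 2.45, 5.22 and 3.00 FPKM in control mice 0, 1 and 2, and at 2.04, 2.99 and 5.34 FPKM in the JunBΔep mice. Control 1 and JunBΔep 2 were the highest pair for both vascular connexins, and the groups overlapped for all 6 genes.

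**Figure D1:**
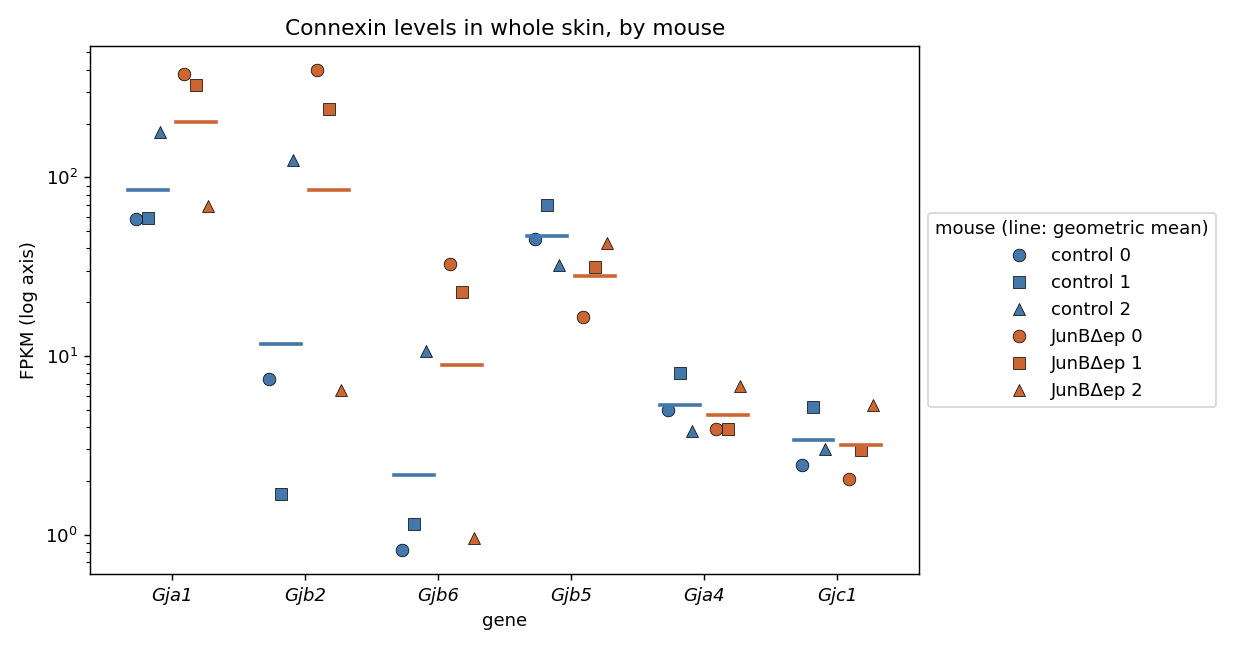
FPKM of the 6 connexin genes (log axis) in each of the 3 control mice (blue) and 3 JunBΔep mice (orange), with the replicate number as the symbol shape and the geometric mean of each group as a line. Control 2 sits with JunBΔep 0 and 1 in Gja1, Gjb2 and Gjb6, and JunBΔep 2 sits with control 0 and 1.

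The genotypes were compared for each gene with limma on log2(FPKM + 0.5), a scale that understates the change of low genes, over the 17021 genes that averaged 0.1 FPKM or more. All 6 connexins passed this filter and none had an adjusted p below 0.05, against 1.38% of all tested genes, nor did any have an unadjusted p below 0.05, against 7.56%. Gja1 was at 98.7 ± 69.5 FPKM in control skin (SD, n = 3) and 258 ± 166 FPKM (SD, n = 3) in JunBΔep skin. Its log2 fold change was 1.26 (standard error 0.78, 95% interval -0.64 to 3.16, adjusted p = 0.722 from limma). Gjb2 was at 44.8 ± 69.8 FPKM in control skin against 215 ± 197 FPKM in JunBΔep skin, with a log2 fold change of 2.76 (standard error 2.04, 95% interval -2.22 to 7.73, adjusted p = 0.722 from limma). Gjb6 was at 4.20 ± 5.57 and 18.8 ± 16.3 FPKM, with a log2 fold change of 1.84 (95% interval -1.59 to 5.28, adjusted p = 0.722 from limma). These intervals hold both no difference and large ones, so neither was shown.

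Gjb5 was at 49.3 ± 19.3 FPKM in control skin (SD, n = 3) and 30.3 ± 13.2 FPKM (SD, n = 3) in JunBΔep skin. Its log2 fold change was -0.72 (standard error 0.43, 95% interval -1.77 to 0.33, adjusted p = 0.722 from limma). For Gja4 the group means were 5.60 ± 2.18 and 4.87 ± 1.69 FPKM, with a log2 fold change of -0.17 (95% interval -1.03 to 0.69, adjusted p = 0.875 from limma). For Gjc1 they were 3.56 ± 1.46 and 3.46 ± 1.70 FPKM, with a log2 fold change of -0.06 (95% interval -1.06 to 0.93, adjusted p = 0.964 from limma). The median log2 fold change of the 6 genes was 0.60, beside 0.03 over all tested genes. The groups did not overlap in 14.8% of all tested genes, 5.62% higher and 9.16% lower in JunBΔep skin, and in 0 of the 6 connexins.

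Without the library labelled JunBΔep 0, the log2 fold changes were 0.82 for Gja1, 1.66 for Gjb2, 1.01 for Gjb6, -0.35 for Gjb5, -0.04 for Gja4 and 0.21 for Gjc1, and none was called. Leaving out JunBΔep 2 instead gave the largest values, 2.04 for Gja1, 4.58 for Gjb2 and 3.26 for Gjb6, and leaving out control 2 gave 1.79, 4.40 and 2.82 (adjusted p = 0.183 to 0.769 from limma for these 6 values). Without JunBΔep 2, the unadjusted p from limma was 0.0145 for Gja1, 0.0223 for Gjb6 and 0.0462 for Gjb2. In that fit 1842 genes were lower and 1282 higher at an unadjusted p below 0.05, of 16993 tested. No connexin passed 0.05 unadjusted in the other fits without 1 mouse. The estimate of Gjb2 was lowest, at 1.47, without control 1. The direction of Gja4 turned without control 1 (0.10), and that of Gjc1 turned without control 1 (0.21) or without JunBΔep 0.

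**Figure D2:**
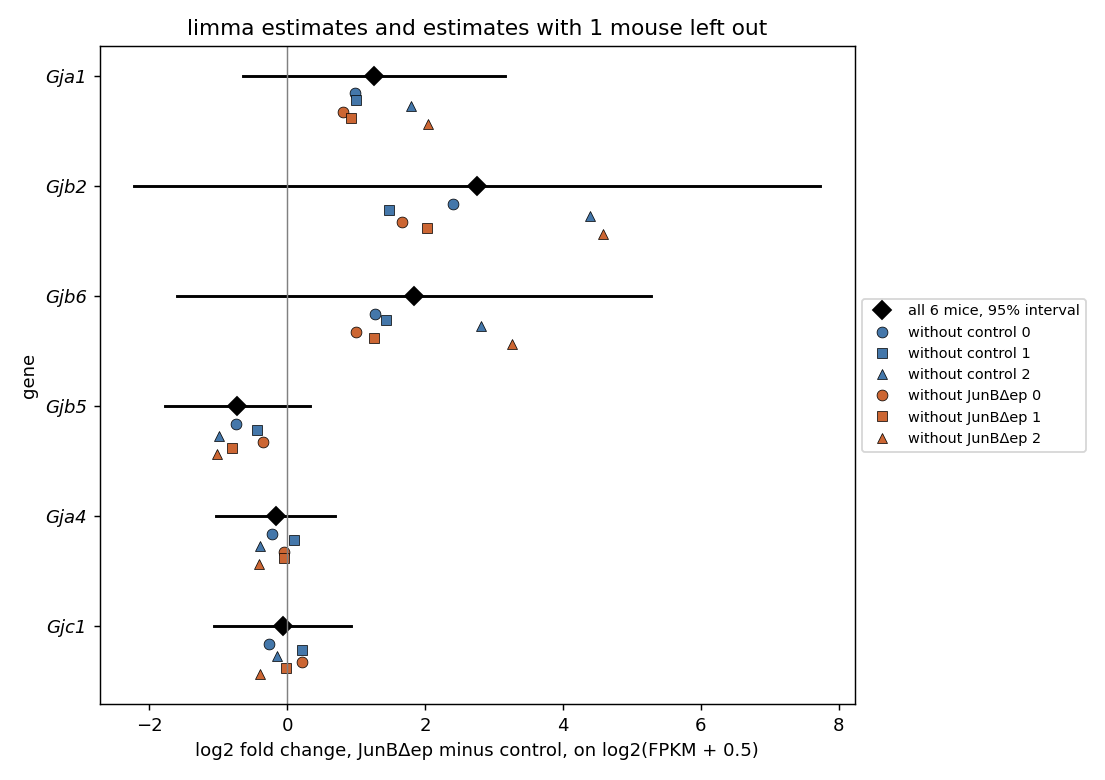
log2 fold change, JunBΔep minus control, of the 6 connexin genes on the log2(FPKM + 0.5) scale. Diamonds and lines are the limma estimate from all 6 mice and its 95% interval, and the smaller symbols are the estimates with 1 mouse left out. All 6 intervals cross 0, and Gjb2 moved between 1.47 and 4.58.

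Mice of the same genotype differed more in Gja1, Gjb2 and Gjb6 than in most genes. On the log2 scale the SD within genotypes was 3.08 for Gjb2, larger than for 99.0% of the tested genes, 2.12 for Gjb6 (97.9%) and 1.16 for Gja1 (93.9%). Among genes whose mean FPKM lay within 2-fold of the same gene, 94.9% of 967 genes varied less than Gjb2, 97.7% of 5471 less than Gjb6 and 88.3% of 681 less than Gja1. The values of Gjb5 (0.62), Gjc1 (0.55) and Gja4 (0.46) were larger than those of 79.0%, 74.1% and 66.0% of tested genes.

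The numbers in the sample titles form 2 series, of which 1 holds control 0, control 1 and JunBΔep 0 and the other holds control 2, JunBΔep 1 and JunBΔep 2. Whether these series are batches is not stated. Within the first, JunBΔep minus control was 2.68 for Gja1, 6.58 for Gjb2 and 4.49 for Gjb6 on the log2 scale. Within the second it was -0.25, -1.62 and -0.94, so the direction of these 3 genes did not hold in both series. Gjb5 was at -1.74 and 0.18, Gja4 at -0.64 and 0.40, and Gjc1 at -0.69 and 0.37. Each series has 1 mouse of 1 genotype, so these values have no spread of their own. With the series as a block, the 6 adjusted p-values from limma were 0.601 to 0.914.

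FPKM is per length, so levels can be set side by side between genes. In control skin the mean levels ran from Gja1 over Gjb5, Gjb2, Gja4 and Gjb6 to Gjc1. In JunBΔep skin they ran from Gja1 over Gjb2, Gjb5, Gjb6 and Gja4 to Gjc1. No neighbours in either order differed by more than the larger SD of the pair, and the order of the genes was shared by control 2 and JunBΔep 1 alone. The 6 genes summed to 119, 145 and 354 FPKM in control mice 0, 1 and 2 and to 832, 628 and 131 FPKM in JunBΔep mice 0, 1 and 2. Gja1 made up 40.6% to 50.6% of this sum in the controls and 45.4% to 52.4% in the JunBΔep mice.

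The rest of the sum was divided mainly between Gjb5 and Gjb2. Gjb2 took 6.21%, 1.17% and 35.4% in control mice 0, 1 and 2 and 47.9%, 38.3% and 4.94% in JunBΔep mice 0, 1 and 2. Gjb5 took 38.1%, 48.3% and 9.11% in the controls and 2.00%, 4.99% and 32.7% in the JunBΔep mice. Gjb2 was thus the more abundant of this pair in JunBΔep 0, JunBΔep 1 and control 2, and Gjb5 in the other three mice. The ratio of Gjb2 to Gjb6 was 12.2, 10.6 and 6.80 in JunBΔep mice 0, 1 and 2 and 9.03, 1.47 and 11.8 in control mice 0, 1 and 2.

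**Figure D3:**
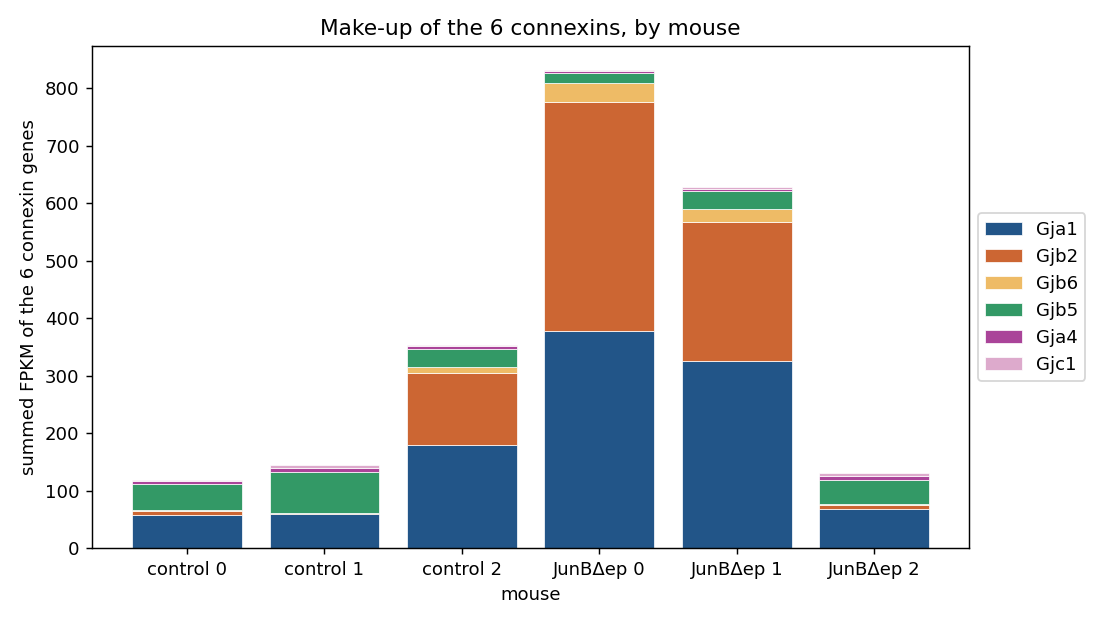
Summed FPKM of the 6 connexin genes in each mouse, stacked by gene. Gja1 (dark blue) and Gjb2 (orange) make the tall bars of control 2, JunBΔep 0 and JunBΔep 1, which reach 354, 832 and 628 FPKM.

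The table held 14 further connexins, of which 10 passed the filter and 0 were called. Their median log2 fold change was 0.00, with 5 higher and 5 lower in JunBΔep skin, and the groups overlapped in all 10.

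Gja3, which lies beside Gjb2 on chromosome 14, was at 3.71 FPKM in control 2 and 6.95 FPKM in JunBΔep 1, at 0.251 FPKM in JunBΔep 0 and at most 0.0447 FPKM in the other three mice. It was therefore high in 2 of the 3 mice with high Gjb2. Gja5 (connexin 40), the second arterial connexin, was at 1.46 to 2.09 FPKM in control skin against 0.755 to 2.52 FPKM in JunBΔep skin, highest in JunBΔep 2. Gjb1 (connexin 32), known from liver and myelin, was at 12.7, 0.644 and 13.1 FPKM in control skin against 2.70, 0.337 and 0.591 FPKM in JunBΔep mice (log2 fold change -2.05, adjusted p = 0.722 from limma). Of the pannexins, which form channels of a similar build in the plasma membrane, Panx1 was at 8.30 to 11.9 FPKM in control skin against 9.74 to 23.4 FPKM in JunBΔep skin, and Panx3 at 2.42 to 4.83 and 1.38 to 3.25 FPKM, with 0 of 3 pannexins called.

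Proteins that bind connexins or modify them were listed as well, and 0 of the 18 tested genes were called. Their median log2 fold change was 0.11, 12 being higher and 6 lower. Control and JunBΔep values were separate in 3 of the 18 genes with higher values in JunBΔep skin, Ezr, Csnk1d and Mapk7, and in 1 with lower values, Prkca, beside 5.62% and 9.16% of all tested genes. Ezr, which encodes ezrin, a linker of membrane proteins to actin, was at 70.6, 58.3 and 71.8 FPKM in control skin against 157.7, 103.3 and 86.1 FPKM in JunBΔep mice. Its log2 fold change was 0.74 with a standard error of 0.26, and it missed the threshold after adjustment. Prkca, the gene of a protein kinase C that phosphorylates connexin 43, was at 3.40, 3.03 and 4.49 FPKM in control skin against 2.21, 2.35 and 2.07 FPKM in JunBΔep mice. Its log2 fold change was -0.60 (limma, standard error 0.22, adjusted p = 0.583). Tjp1 (ZO-1), the scaffold that binds the tail of connexin 43, was at 5.96 to 9.70 FPKM in control skin against 8.94 to 13.6 FPKM in JunBΔep skin.

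The median of the hair follicle markers moved with part of the Gja1, Gjb2 and Gjb6 pattern, but single markers differed. Krt71, a keratin of the inner root sheath of growing hair, was at 0.191, 0.344 and 1318 FPKM in control mice 0, 1 and 2 and at 120.1, 2160 and 32.9 FPKM in JunBΔep mice 0, 1 and 2. The 12 follicle markers summed to 117 to 3761 FPKM in control skin against 199 to 6430 FPKM in JunBΔep skin, and only Krt73 was at 0, in control 0. Their median difference from the control mean was -1.67, -1.77 and 3.45 in control mice 0, 1 and 2 and 0.97, 4.57 and 0.14 in JunBΔep mice 0, 1 and 2 on the log2 scale. Control 2 and JunBΔep 1 were thus the highest pair for the follicle markers, whereas JunBΔep 0 was highest for the 3 connexins. The list was split in JunBΔep 0. Gata3 (-2.54), Lhx2 (-2.33), Sox21 (-0.93) and Msx2 lay below the control mean there. Krt25, Krt27, Krt28, Krt71, Krt73, Trps1, Foxn1 and Tchh lay above it. In control 2 only Gata3 was below the control mean, at -0.31. The melanocyte list was highest in JunBΔep 1, followed by control 2 (2.00). Their part in the connexin values was not tested.

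Keratinocyte markers gave mixed values. The 8 basal markers had medians of 0.08, 0.12 and -0.24 in control mice 0, 1 and 2 and -0.42, -0.40 and -0.01 in JunBΔep mice 0, 1 and 2. Krt14, listed at 0 in JunBΔep 0, was left out as a choice made after seeing the data, and the median of the other 7 in that mouse was then 0.47, the highest of the 6 mice, with 4 of the 7 above the control mean. Krt5 was highest there, at 3725 FPKM, while Krt15 was lowest there, at 80.7 FPKM. The part of basal cells in the connexin values was not tested. Krt17, a keratin of follicles and of stressed epidermis, was at 626 to 837 FPKM in control skin, and at 4025, 1319 and 713 FPKM in JunBΔep mice 0, 1 and 2. Among controls Krt17 was highest in control 1 and Gja1 in control 2. The 3 other stress keratins, Krt6a, Krt6b and Krt16, were listed at 0 in JunBΔep 0, so the median of the 4 was -2.75 there and 0.84 and 0.16 in JunBΔep 1 and 2, beside -0.11, 0.25 and -0.09 in control mice 0, 1 and 2. The 8 tested markers of differentiating keratinocytes, the layer of Gjb5, had medians of 0.22, -0.01 and -0.17 in control mice 0, 1 and 2 and 0.17, -0.34 and -0.26 in JunBΔep mice 0, 1 and 2. None was called, 4 were estimated higher and 4 lower, and in 2 of the 8, Dsg1a and Krt2, every JunBΔep mouse lay below every control, beside 9.16% of all tested genes. Krt2 was at 0.334 to 1.00 FPKM, where values are least certain. In JunBΔep 0 the mucosal markers were 9.58 above the control mean, at a summed 3798 FPKM where the other libraries summed to 0.394 to 1.41 FPKM. Leukocyte markers were highest in that library too, where the 8 tested had a median of 1.26 and summed to 24602 FPKM, of which the neutrophil gene S100a8 gave 24456 FPKM. In the other libraries they summed to 40.7 to 813 FPKM, and none of the 8 was at 0 in any library or called. Cd3e and Cd3g, of T cells, and Cd79a, of B cells, were lowest in JunBΔep 0. The part of this epithelium or of leukocytes in its connexin values was not tested. The vascular lists gave the following beside Gja4 and Gjc1. The 10 endothelial markers summed to 115 to 219 FPKM in control skin against 75.2 to 278 FPKM in JunBΔep skin, with medians of 0.09, 0.24 and -0.38 in control mice 0, 1 and 2 and -0.51, -1.07 and 0.75 in JunBΔep mice 0, 1 and 2, and none was at 0. Their highest pair, JunBΔep 2 and control 1, was that of Gja4 and Gjc1. The 10 mural cell markers had their highest medians in the same mice, 0.47 and 0.19. So did the adipocyte markers (1.59 and 0.68) and the nerve and Schwann cell markers (0.40 and 0.55), so that the order was not particular to the vascular lists. Both of these lists were lowest in JunBΔep 0, with medians of -6.74 and -2.13. The adipocyte markers summed to 62.2 FPKM there and to 1223 to 9006 FPKM in the other libraries. The part of vessels, fat or nerve in the connexin values was not tested.

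**Figure D4:**
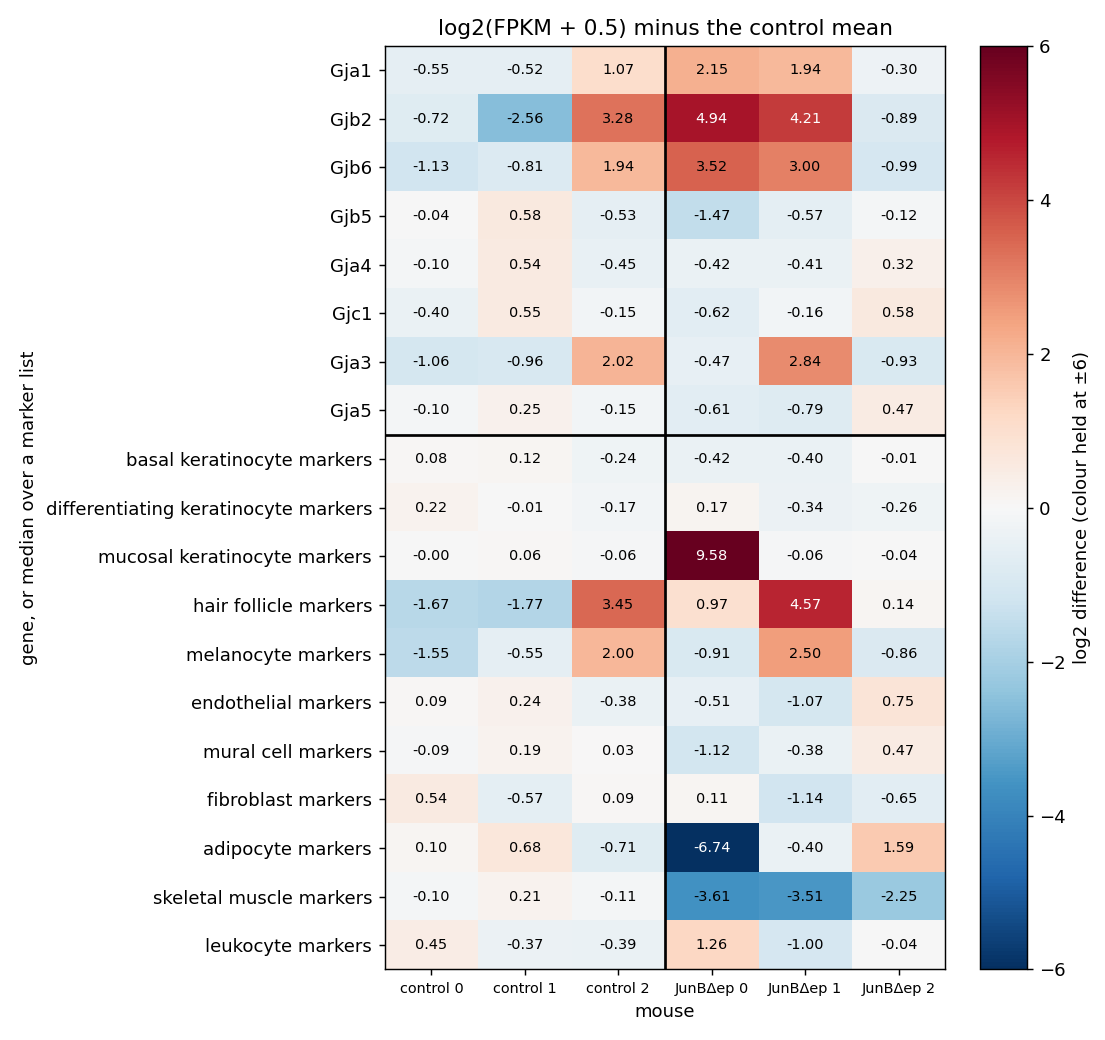
Difference of log2(FPKM + 0.5) from the control mean in each mouse for the 6 connexin genes, Gja3 and Gja5 (top) and, as the median over each list, for markers of skin cell types (bottom). Gja1, Gjb2 and Gjb6 are above 1 in control 2, JunBΔep 0 and JunBΔep 1, and the follicle markers are highest in control 2 (3.45) and JunBΔep 1 (4.57). The basal keratinocyte median of JunBΔep 0 includes Krt14, listed at 0.

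For each connexin the 2 genes with the most similar profile over the 6 mice were named, by the root mean square difference of log2 values centred on each gene's mean, among 13741 other genes averaging 1 FPKM or more. For Gja1 they were Nt5dc2 (0.13) and Bnc1 (0.18), a zinc finger gene of keratinocytes with proliferative capacity. Bnc1 was at 2.27, 2.65 and 6.17 FPKM in control mice 0, 1 and 2 and at 17.8, 12.4 and 2.28 FPKM in JunBΔep mice 0, 1 and 2. For Gjb2 they were Tubb3 (0.94) and Pinlyp (0.94), with Gjb6 at rank 4 (1.10). For Gjb6 they were S100a7a (0.38) and Serpina9 (0.50), with Gja1 at rank 12 (0.84) and Gjb2 at rank 60. The ranks were not mutual. Among the genes most like Gja1, Gjb6 was at rank 1047 and Gjb2 at rank 12440 (1.78), and Gja1 was at rank 67 for Gjb2.

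The genes most like Gjb5 were Aff3 (0.09) and Lce1a2 (0.11), which encodes a late cornified envelope protein and was at 351, 562 and 251 FPKM in control mice 0, 1 and 2 and at 162, 273 and 381 FPKM in JunBΔep mice 0, 1 and 2. For Gja4 they were Naprt1 (0.06) and Itgb1bp1 (0.06), and for Gjc1 0610040B10Rik (0.08) and Pcp2 (0.10). Gja4 was at rank 165 for Gjc1 (0.24). These values describe 6 libraries of 2 genotypes, which also differed in their marker levels.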

How the data were processed

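RNA from whole skin of 3 JunBΔep and 3 control mice was sequenced by the authors from poly(A) libraries with strand information. They aligned the reads to mm9 with TopHat2 2.0.10, Bowtie 1.0.0 and SAMtools 0.1.19 and used the iGenomes transcript annotation, allowing several hits per read. The deposited values are FPKM per gene and mouse. Cufflinks is among the tools in the submitters' processing notes, but the sources used here do not say which tool made the FPKM values or whether strand was used. For their differential expression the authors ran DESeq2, whose counts were not analysed here.

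From these, log2(FPKM + 0.5) was compared with limma 3.58.1 (R 4.3.3) with an intensity trend over 17021 genes averaging 0.1 FPKM or more, two-sided, with Benjamini-Hochberg adjustment over all of them and a threshold of 0.05. An exact permutation test of 3 mice against 3 cannot give a p below 0.1. The read depth is unknown, and from the steps between low values the library totals were 0.955 to 1.14 times that of control 0. Python 3.11.15, pandas 2.3.3 and matplotlib 3.10.9 made tables and figures. The members and gene lists were chosen with earlier results of these data known. Named were Junb, the genes of the lists and the 2 genes most alike to each member. Of the listed symbols, Ccn3, Flg, Adgre1 and Ly6g were not matched. GENCODE vM1 gave the mm9 positions. As alternatives, the pseudocount was set to 0.1 or 1, the filter was dropped or raised to 1 FPKM, values were rescaled by median ratios, to a sum of 1000000 or by quantiles, limma was run robustly or with no trend, the replicate number or the title series was added as a block, and each mouse was left out in turn.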

Additional observations from a re-analysis of the deposited data

How the results depend on the processing

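None of the 6 connexins was called under any of the 17 alternatives. Of 102 refitted values, 98 kept the direction of the reported one. Gjc1 turned to 0.056 after quantile normalization, and in the fits without 1 mouse Gjc1 ranged from -0.39 to 0.21 and Gja4 from -0.41 to 0.10. The median of the 6 genes ranged from 0.39 to 0.83 without 1 mouse. Over all genes, the 235 called lower became 0 with the replicate block and 0 with the title series block, and 0 to 254 without 1 mouse. The genes called higher, 0 in the reported fit, were 0 to 10 without 1 mouse, with the 10 found without JunBΔep 0. At an unadjusted p below 0.05, 243 genes were higher and 1044 lower, with ranges of 62 (without control 0) to 1282 (without JunBΔep 2) and of 731 to 1842 without the same mice. The cause was not tested. Same-numbered mice were correlated at 0.12, -0.23 and -0.43 in their deviations from the group means, so the numbers were not taken to pair them, and control 0 and control 1 both correlated best with JunBΔep 2 (0.19 and 0.38) and control 2 with JunBΔep 1 (0.46). With the replicate block the connexin estimates are the same and their adjusted p-values from limma were 0.817 to 0.970. As a share of all 20 connexins in place of the 6, Gja1 made up 28.0% rather than 46.6% in controls and 37.0% rather than 49.9% in JunBΔep skin. The depth is unknown, so values near 1 FPKM, such as Gjb6 in 3 mice, are the least certain.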
